A study of Mus musculus with 12 samples.

Results

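In small RNA libraries of mouse frontal cortex (FCx) and hippocampus (HP), whose count files list 469 miRNAs, 10 miRNAs known for tissues other than the forebrain were followed. They were chosen by name: the muscle miRNAs mmu-miR-1, mmu-miR-133a, mmu-miR-133b and mmu-miR-206, the liver miRNA mmu-miR-122, the miRNAs of the Hox gene clusters mmu-miR-10a, mmu-miR-10b, mmu-miR-196a and mmu-miR-196b, and the endocrine miRNA mmu-miR-375. Star forms (the other strand of a hairpin) were left out, and a name that a file did not list was taken as 0 counts. Of the 10 names 9 were listed at least once, and miR-196b was listed in no file. All samples came from singly housed male C57BL/6J mice that were 8 weeks old. For each region the tissue of 3 mice was pooled, and its RNA was made into 3 libraries. These differ in a tag of 6 nt (the index) at the end of the 5′ adaptor that is ligated to the small RNA. The tags are UUAGGC for index 3, CAGAUC for index 7 and GGCUAC for index 11. Each library was sequenced alone in a lane and together with the other libraries of its region in a further lane (pooled lane), and the 2 runs were summed, so n = 3 libraries per region. The spread between the libraries of a region is therefore technical and includes the index, and the spread between mice was not measured.

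A miRNA is cut from a hairpin and guides a silencing complex to mRNAs that pair with its seed, bases 2 to 8 from its 5′ end. MiR-1, miR-133a, miR-133b and miR-206 are known as the miRNAs of heart and skeletal muscle, where they act on growth and differentiation, and miR-206 is mainly a miRNA of skeletal muscle. MiR-122 is the leading miRNA of hepatocytes, where it acts in lipid metabolism. The genes of miR-10a, miR-10b, miR-196a and miR-196b lie in the Hox clusters, whose genes set position along the body axis and are largely silent in the adult forebrain. MiR-375 is a miRNA of pancreatic islets, where it acts on insulin secretion, and of the pituitary.

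The mature sequences that set these miRNAs apart are given here 5′ to 3′ with the seed in capitals, as far as the sequence tables hold them, from RefSeq (GRCm38.p6) and, for miR-375, from a supplementary table of the study. They show which members a short read can hardly tell apart.
miR-206: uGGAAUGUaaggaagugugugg
miR-10a: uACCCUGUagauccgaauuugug
miR-10b: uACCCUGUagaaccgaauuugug
miR-196a: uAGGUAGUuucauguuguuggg
miR-196b: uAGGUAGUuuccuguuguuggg
miR-375: uUUGUUCGuucggcucgcgug
MiR-10a and miR-10b share the seed and differ at 1 of 23 bases (U12A, the base of miR-10a first, counted from the 5′ end). MiR-196a and miR-196b share the seed too and differ at 1 of 22 bases (A12C, the base of miR-196a first). The first 21 bases of miR-133b also stand in both annotated hairpins of miR-133a, so these names are set apart by 1 base at the 3′ end. MiR-1, miR-133a and miR-122 are named only, and the sequence of miR-1 was not compared with that of miR-206.

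**Figure D1:**
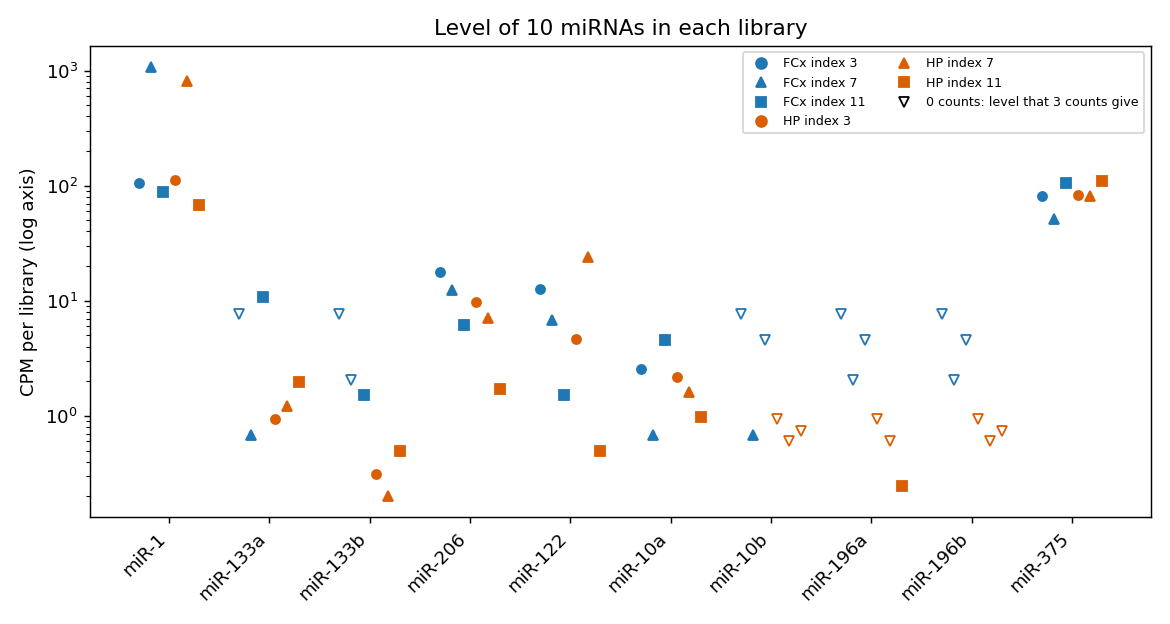
Level of the 10 miRNAs in each of 6 libraries, as CPM (counts per 1000000 miRNA counts of the library) on a log axis; colour gives the region and the symbol the index. Open triangles stand at the level of 3 counts for libraries with 0 counts. MiR-1 reached 1066 CPM in the FCx library of index 7. Where Hox cluster miRNAs had counts, they were at or under 4.60 CPM, while 0 counts allow up to 7.66 CPM in FCx index 3.

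Expression is given as CPM, counts per 1000000 counts on miRNAs of the library. The libraries held 391410 to 1461732 counts in FCx and 3206221 to 4956117 in HP. Where a library had 0 counts, up to 3 counts were allowed for, which corresponds to 2.05 to 7.66 CPM in a single FCx library and 0.605 to 0.936 CPM in a single HP library. Over all counts of a region the limit was 1.20 CPM in FCx and 0.246 CPM in HP, so the same low level was harder to see in FCx. Reads carry no molecular identifiers, and intervals (95%, exact, Clopper-Pearson) and limits cover counting error only. The tissue label was checked with the brain miRNAs miR-124, miR-9, miR-128 and miR-125b-5p. Together they made up 249981 to 275128 CPM in FCx and 129782 to 171120 CPM in HP. Of these, miR-128 had the highest mean, with 193829 CPM in FCx and 81734.5 CPM in HP. The means of miR-124 and miR-125b-5p were also higher in FCx, while that of miR-9 was higher in HP (38984 against 27611 CPM). Over the FCx libraries miR-124 ranged from 4091 to 57775 CPM. The 10 miRNAs together made up 184 to 1138 CPM. In RNA of whole tissue, fewer cells of a type and less RNA per cell cannot be told apart.

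With at least 2 counts over the files of a region as the minimum, 6 of the 10 miRNAs passed in FCx and 7 in HP. MiR-1, miR-133a, miR-206, miR-122, miR-10a and miR-375 were detected in both, and miR-133b reached the minimum in HP. At least 2 counts in every library were found for 3 miRNAs in FCx (miR-1, miR-206 and miR-375) and for 6 in HP. The muscle miRNAs held 6422 of the 7890 counts of the set (81.4%), miR-375 held 1290 (16.3%), miR-122 held 152 (1.93%) and the Hox cluster miRNAs held 26 (0.330%).

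MiR-1 had the highest mean CPM of the 10 in both regions, which rests on the libraries of index 7: without them the means of miR-1 were 96.1 CPM for FCx and 89.5 CPM for HP, against 93.8 and 96.3 CPM for miR-375. The FCx libraries of index 3, 7 and 11 held 41, 1558 and 57 of its reads and the HP libraries 358, 4003 and 273. This is 105, 1066 and 87.4 CPM in FCx and 112, 808 and 67.3 CPM in HP. In each region the library of index 7 stood far above the rest, and the regions overlapped. The mean was 419 ± 560 CPM in FCx (SD, n = 3 libraries) and 329 ± 415 CPM in HP, so the SD exceeded the mean. By mean CPM it ranked 80 in FCx and 88 in HP among the 469 miRNAs.

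The count tables hold a second entry, miR-1-2-as, for an RNA antisense to a miR-1 gene, with 6327 counts over all files against 6290 for miR-1. The entries were equal in 5 of the 12 lane files, and in the others the antisense entry was higher by 1 to 18 counts. At the hairpin Mir1a-1 the genome alignments had 4435 reads in sense and 2 in antisense, and at the other perfect copy of miR-1 they had 1722 in sense and 3 in antisense. The same reads may be counted under both entries, so the count of the antisense entry is not read as the level of an antisense RNA. Library totals contain both entries.

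MiR-206, which shares its leading tissue with miR-1, was found at low level in all 6 libraries. It had 7, 18 and 4 counts in FCx (17.9, 12.3 and 6.13 CPM) and 31, 35 and 7 counts in HP (9.67, 7.06 and 1.73 CPM) for indexes 3, 7 and 11. Index 3 gave the highest and index 11 the lowest value in both regions. Its mean level was 12.1 ± 5.88 CPM among the FCx libraries and 6.15 ± 4.05 CPM among those of HP (SD, n = 3 libraries each).

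MiR-133a, which is made from the same primary transcripts as miR-1 in muscle, had 0, 1 and 7 counts in FCx and 3, 6 and 8 in HP. The 7 counts of FCx index 11 are 10.7 CPM (95% interval 4.31 to 22.1), against at most 1.97 CPM in an HP library. Both runs of that library held reads, 5 in the individual and 2 in the pooled lane. Its partner miR-133b had 1 count in FCx and 4 in HP, or 0.399 and 0.327 CPM over all counts of the region.

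In both regions miR-1 had its highest CPM with index 7, and miR-133a had its highest with index 11. As miR-133a had only 0 to 8 counts per library, whether the levels go together was not tested. Per region, miR-1 had 1656 counts beside 8 of miR-133a in FCx and 4634 beside 17 in HP. Of other muscle miRNAs only miR-499, miR-208a and miR-208b were looked up. Over all files miR-499 had 42 counts, and miR-208a and miR-208b had 1 count each. MiR-133a*, from the other arm of the miR-133a hairpins, had 4 counts in FCx and 3 in HP.

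MiR-122 was found in all 6 libraries at very unequal levels. It had 5, 10 and 1 counts in FCx (12.8, 6.84 and 1.53 CPM) and 15, 119 and 2 counts in HP (4.68, 24.0 and 0.493 CPM) for indexes 3, 7 and 11. The HP library of index 7 held 119 of the 152 counts, 68 in its individual and 51 in its pooled lane, and its interval (19.9 to 28.7 CPM) did not overlap that of any other library except that of FCx index 3 (4.15 to 29.8 CPM). Averaged over the libraries the level was 7.05 ± 5.62 CPM for FCx and 9.73 ± 12.5 CPM for HP (SD, n = 3 libraries each).

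Its star form was at 0 counts in every library. MiR-192 and miR-194, which are known from liver, gut and kidney, were present too. MiR-192 had 3340 counts over all files and was above miR-122 in every library, with 125.7 to 290 CPM in the FCx libraries and 128.3 to 329 CPM in the HP libraries. For miR-194, index 3 gave the most (38.3 CPM for FCx, 32.7 CPM for HP) and index 7 the least (1.37 and 2.82 CPM). Thus the liver list did not move as one across the indexes.

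The Hox cluster miRNAs were at or near the limit of detection. For indexes 3, 7 and 11, miR-10a had 1, 1 and 3 counts in FCx and 7, 8 and 4 counts in HP. Over all counts this is 1.996 CPM in FCx (95% interval 0.648 to 4.66) and 1.56 CPM in HP (0.936 to 2.43), intervals that overlap. MiR-10b had 1 count, in FCx index 7, and 0 in HP, where 0 of 12215856 counts allows up to 0.246 CPM. MiR-196a had 1 count, in HP index 11, and 0 of 2505591 counts in FCx allows up to 1.20 CPM. MiR-196b had 0 counts in both regions, with the same limits. Among other miRNAs of these clusters, miR-615-3p had 2 counts in FCx and 3 in HP, and miR-10a*, miR-10b* and miR-196a* had 0. Of the 8 names of this list 4 had a count, and together they gave 2.05 to 6.13 CPM in FCx and 1.48 to 2.18 CPM in HP.

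MiR-375 varied least among the members found in all 6 libraries, by 2.06 times between the highest and the lowest library in FCx and 1.36 times in HP. With indexes 3, 7 and 11 it had 32, 75 and 69 counts in FCx (81.8, 51.3 and 106 CPM) and 264, 403 and 447 counts in HP (82.3, 81.3 and 110 CPM). The regions overlapped, and index 11 was highest in both. Its mean of 79.6 ± 27.3 CPM ranked 153 in FCx, and its mean of 91.3 ± 16.4 CPM ranked 138 in HP (SD, n = 3 libraries each). The lanes of the FCx library of index 7 differed, with 34.2 CPM in the individual and 73.0 CPM in the pooled lane, and those of HP index 3 with 63.8 and 115 CPM. FCx index 3 went the other way, with 98.6 CPM on 27 counts in the individual and 42.5 CPM on 5 counts in the pooled lane.

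**Figure D2:**
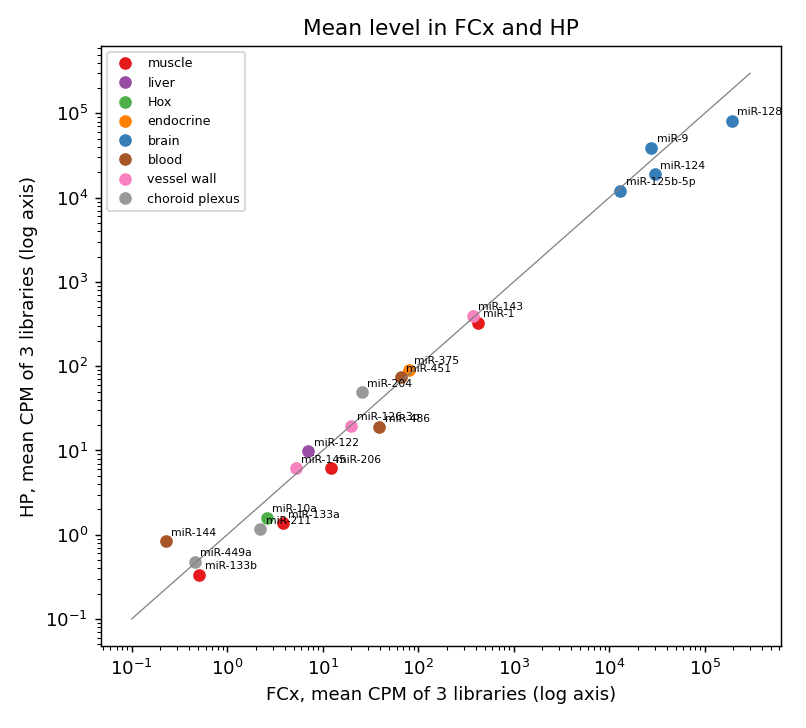
Mean CPM of 3 libraries in FCx (x axis) and HP (y axis), both on log axes, for members with counts in both regions and for miRNAs of brain, blood, vessel wall and choroid plexus; the line marks equal levels. The members lie below the brain miRNAs.

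For scale, the plot of mean levels sets the members beside miRNAs of brain and of other tissue in a dissected region. MiR-143, a miRNA of smooth muscle, had a mean near that of miR-1 (374 ± 191 CPM for FCx, 397 ± 257 CPM for HP, SD, n = 3 libraries each). MiR-451 of red blood cells had means near those of miR-375 (65.6 ± 64.5 and 74.5 ± 62.6 CPM). In single libraries these pairs were apart: with index 7 in FCx, miR-1 was at 1066 CPM and miR-143 at 197.7 CPM, and with index 11 at 87.4 and 576 CPM. The order of the mean levels was miR-1, miR-375, miR-206, miR-122, miR-133a, miR-10a, miR-133b in FCx, and the same in HP except that miR-122 stood above miR-206 and miR-10a above miR-133a. From miR-206 to miR-10a, the means of neighbours in this order lay closer than the sum of their SDs in both regions, and the SD of miR-1 is larger than its distance from miR-375. The libraries were prepared by ligation, so levels of different miRNAs are set side by side only as CPM of these libraries.

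The reads were also located in the genome from the alignments (NCBIM37), which do not use the miRBase names. The hairpins and genes are those of the GENCODE vM1 annotation. Mir206 (chr1:20669091-20669163, plus strand) and Mir133b (chr1:20672850-20672968, plus strand) lie 3687 bp apart between the genes Pkhd1 and Il17a. Mir206 held 91 alignments against 102 counts, and Mir133b held 4 against 5. Mir375 (chr1:74947226-74947300, minus strand) lies between Cryba2 and Ccdc108 and held 1291 alignments against 1290 counts. Mir10a (chr11:96178479-96178588, plus strand) overlaps an annotated exon of Hoxb4 and held 21 alignments against 24 counts. Mir10b (chr2:74564127-74564194, plus strand) lies in introns of Hoxd3 and Hoxd4 and held the 1 read that the count table also gives. Mir196b (chr6:52180080-52180164, minus strand) overlaps an exon of Hoxa9 and held 0. Mir196a-1 (chr11:96126478-96126579, plus strand), between Gm53 and Hoxb9, held 1 alignment of 17 nt, from FCx index 3, where the count table gives 0, and Mir196a-2 (chr15:102803772-102803881, plus strand), in an intron of Gm20398, held 1, from HP index 11. By both ways of locating reads, the Hox clusters thus held few reads.

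MiR-1 has 2 perfect copies of its first 21 bases in the genome. One is in Mir1a-1 (chr2:180123753-180123829, plus strand), 9255 bp from Mir133a-2 (chr2:180133084-180133187, plus strand). The other (chr18:10785484-10785504, minus strand) has no hairpin in this annotation and lies 2501 bp from Mir133a-1 (chr18:10782897-10782983, minus strand), which stands in an intron of Mib1 on its other strand. The reads were divided between the copies, with 4435 at Mir1a-1 and 1722 at the other, 6157 in all against 6290 counts. As the copies are identical over these bases, the division does not say which gene was read. The hairpins of miR-133a held 14 (Mir133a-2) and 9 (Mir133a-1) alignments of the mature arm and 4 and 3 of the other arm. Mir122a (chr18:65408515-65408580, plus strand), between Nedd4l and Alpk2, held 146 alignments against 152 counts, 113 of them from HP index 7.

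**Figure D3:**
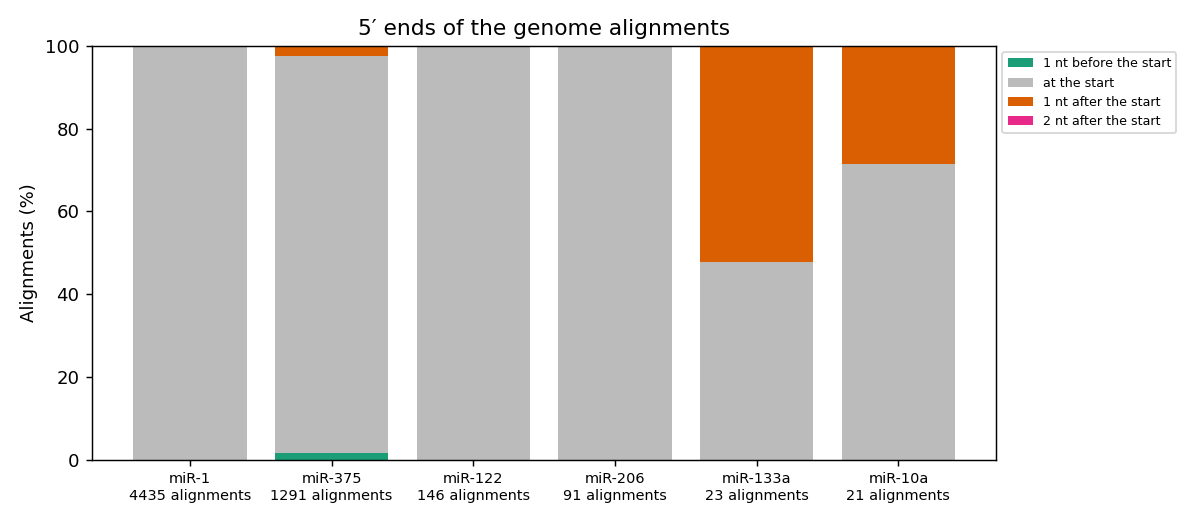
Share of the genome alignments of each miRNA (y axis, percent) by the position of their 5′ end relative to the start of the mature miRNA, over all libraries, for miRNAs with at least 20 alignments. For miR-1 and miR-122 the start is the most frequent 5′ end, and for miR-133a it is the base where miR-133b starts. MiR-206 and miR-122 had all ends at the start, and 12 of 23 alignments of miR-133a began 1 nt later.

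The 5′ end of a read sets its seed, so the ends were compared with the start of the mature miRNA. Read lengths were not compared, since 83.6% of all alignments in the files span 22 nt. MiR-206 began at its annotated start in 91 of 91 alignments. MiR-375 began there in 1240 of 1291 (96.0%), 1 nt later in 29 and 1 nt earlier in 21. For miR-1 at Mir1a-1, 4423 of 4435 (99.7%) shared 1 end, and for miR-122 all 146 did. Some miRNAs were less uniform. MiR-133a began at the base where miR-133b starts in 11 of 23 alignments and 1 nt later in 12, and miR-10a began at its start in 15 of 21 and 1 nt later in 6. For miR-133b it was 1 of 4 and 3 of 4. A read that begins 1 nt later has a seed shifted by 1 base.

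Each RNA pool was split over the 3 indexes, and each index occurs once in each region, so the effect of the index was tested over the 6 libraries in a model that also held the region. By edgeR's quasi-likelihood test and Benjamini-Hochberg adjustment, 264 of 431 tested miRNAs (61.3%) differed between the indexes. Of the 10 members 7 had enough counts to be tested, which means 2 or more summed over the files of either region, and 3 of the 7 differed: miR-1, miR-122 and miR-375. The share is not above that of all miRNAs.

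MiR-1 was higher with index 7 than with index 3 by 10.2 times in FCx (95% interval 7.47 to 14.2) and 7.23 times in HP (6.49 to 8.08). Its log2 fold change of index 7 over index 3 was 3.41 in the model (adjusted p = 2.14e-26, edgeR). Both lanes of each library showed this, with 967 to 1144 CPM in the lanes of FCx index 7 against 45.1 to 127.6 CPM in those of the other indexes. Indexes 3 and 11 differed less, by 1.20 times in FCx (0.782 to 1.82) and 1.66 times in HP (1.41 to 1.95).

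MiR-122 differed with an adjusted p of 9.23e-07 (edgeR), with a log2 fold change of 1.58 for index 7 and -2.69 for index 11, each over index 3. The ratio of index 7 to index 3 was 5.13 in HP (95% interval 2.99 to 9.46). In FCx it was 0.536, with an interval (0.167 to 1.997) that includes 1. Without the HP library of index 7 the call was lost (adjusted p = 0.164, edgeR).

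MiR-375 was higher with index 11 by 0.90 on the log2 scale over index 3 (adjusted p = 0.0153, edgeR). This call depends on the scaling and on single libraries. Its adjusted p was 0.221 with library totals, 0.362 with the pooled lanes and 0.0897 without the HP library of index 3 (edgeR). For miR-206 the adjusted p was 0.0629, and with library totals it was 0.00817 (edgeR). The adjusted p of miR-133a, miR-133b and miR-10a lay between 0.0991 and 0.847 (edgeR), with few counts.

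**Figure D4:**
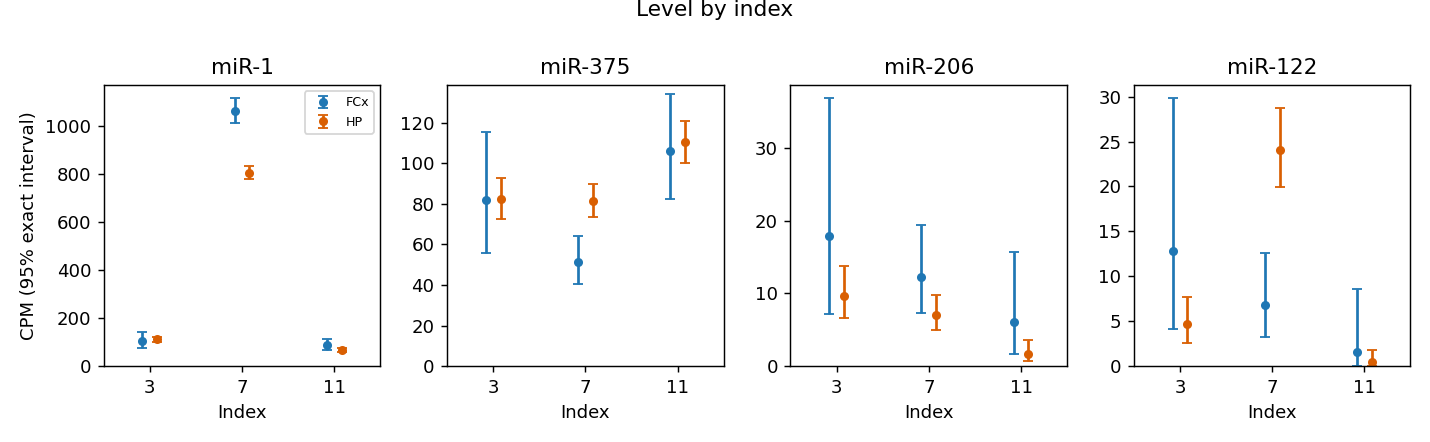
CPM of miR-1, miR-375, miR-206 and miR-122 by index (x axis) in FCx and HP, 1 library per point with its 95% exact interval for counting error. MiR-1 stands at 1066 CPM (FCx) and 808 CPM (HP) with index 7 and at 67.3 to 112 CPM with the others, while miR-122 is at 24.0 CPM in HP and 6.84 CPM in FCx with index 7.

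Marker lists of other tissue are given beside miR-1. The blood miRNAs miR-451, miR-144 and miR-486, all 3 with counts, summed to 172 and 165 CPM with index 7 in FCx and HP, against 64.4 to 79.2 and 35.0 to 82.3 CPM with the other indexes. This sum followed miR-451, at 139.6 and 143.1 CPM with index 7 and 20.2 to 60.2 CPM otherwise, while the index term did not pass for miR-486 (edgeR quasi-likelihood test, adjusted p = 0.935) or miR-144 (0.684). The vessel wall miRNAs miR-126-3p, miR-143 and miR-145, also all with counts, had their lowest sum with index 7, at 210.0 and 196.1 CPM, against 344 to 728 CPM with the others. That sum is mostly miR-143, whereas miR-126-3p, of endothelium, was lowest with index 3, at 7.66 and 7.17 CPM. The choroid plexus miRNAs miR-204, miR-211 and miR-449a also had their lowest sum with index 7, at 3.42 and 6.86 CPM, against 38.3 to 93.9 CPM. MiR-204 made up most of it with the other indexes, and the index term did not pass for miR-211 (edgeR, adjusted p = 0.265) or miR-449a (0.493). The part of other tissue in the levels of the members was not tested.

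Among 173 miRNAs with at least 10 counts in every library, those with the pattern most like that of miR-1 over the 6 libraries were miR-1-2-as (Pearson's r of log2 CPM 1.00), which may hold the same reads, and miR-24 (0.985). MiR-24 had 850 and 920 CPM with index 7 and 198 to 248 CPM with the others. Most like miR-375 were miR-598 (0.987) and miR-100 (0.933). These correlations describe 6 libraries that share indexes and RNA pools.

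The comparison of FCx with HP asks whether any of these miRNAs marks a region. Without a block, 2 of the 431 miRNAs (0.464%) were called by edgeR's quasi-likelihood test and 0 of the 7 members tested. At an unadjusted p under 0.05 there were 17 miRNAs and again 0 members, and with DESeq2's Wald test 12 miRNAs and 0 members were called. The CPM of the regions did not overlap for 39 of the 431 miRNAs (9.05%), and for 0 of the 7 members. On the log2 scale, FCx over HP was 0.39 for miR-1 (SE 1.23), 0.63 for miR-206 (SE 0.92), -0.78 for miR-122 (SE 1.23) and -0.68 for miR-375 (SE 0.78), with an adjusted p of 0.992 each (edgeR). For miR-133a, miR-133b and miR-10a it was 1.01, 0.02 and 0.22, with standard errors of 1.04 to 1.82. The median over all 431 miRNAs was -0.37, or 0.03 with library totals, so values are to be read against that shift.

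With the index as a block, 77 of the 431 miRNAs (17.9%) were called and 0 of the 7 members. The count of 77 was 56 (13%) with library totals in the blocked fit, and members were again at 0. The direction of the calls depended on the scaling. It was 22 higher in FCx and 55 in HP, against 36 and 20 with library totals. The median log2 fold change over the 431 miRNAs was -0.38, or -0.006 with library totals, so blocked values too are to be read against that shift. The member nearest to the threshold was miR-375, at -0.66 (SE 0.29, unadjusted p = 0.0211, adjusted p = 0.0927, edgeR with the block). With library totals this was -0.25 (adjusted p = 0.783, edgeR). MiR-206 was at 0.71 in the blocked fit (SE 0.51, adjusted p = 0.401, edgeR). With library totals as well it was at 1.01 (SE 0.50, unadjusted p = 0.0435, adjusted p = 0.216, edgeR). Which member was under 0.05 before adjustment thus depended on the scaling.

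**Figure D5:**
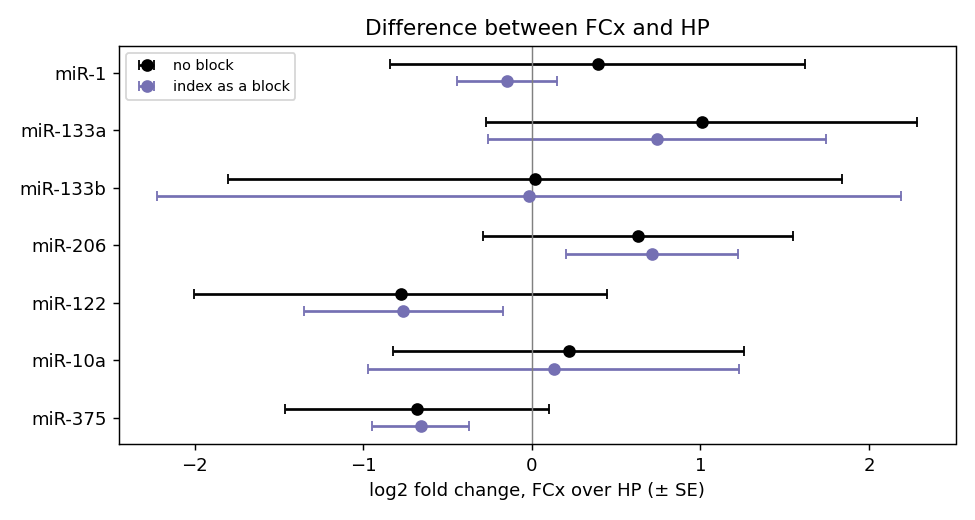
Log2 fold change of FCx over HP with its SE (x axis) for the 7 members tested, without a block and with the index as a block (edgeR, 3 libraries per region). The blocked SE of miR-1 is 0.30 against 1.23 without a block, and 0 members were called in either fit.

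Within an index, the ratio of FCx over HP compares 1 library with 1 library, and its interval covers counting error only, so it is a description. For miR-1 it was 0.938, 1.32 and 1.30 with indexes 3, 7 and 11, so index 7, the deepest, gave an interval above 1 (1.24 to 1.40, counting error only) and the others did not. MiR-206 was above 1 with each index (1.85, 1.74 and 3.55), with intervals that all included 1. MiR-122 was at 2.73 (0.776 to 7.90) and 3.11 (0.0527 to 59.7) with indexes 3 and 11, intervals that include 1. With index 7 it was at 0.285 (0.133 to 0.543), under 1. Without the HP library of index 7, its log2 fold change was 1.24 in place of -0.78. MiR-375 was at 0.993, 0.631 and 0.959, and index 7 again gave the interval that left out 1 (0.486 to 0.809). For miR-133a, index 11 gave 5.44 (1.68 to 17.2) on 7 and 8 counts, and index 7 gave 0.565 on 1 and 6 counts.

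Index 7 made up 58.3% of the FCx counts and 40.6% of the HP counts, so sums over a region do not weight the indexes alike. The ratio of the sums was 1.74 for miR-1, above the value of every single index.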

How the data were processed

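Small RNA of FCx and HP was measured by miRNA-Seq in 12 lane files (6 libraries, 2 runs each). Per the labels and the study's methods, the authors sorted reads by index, trimmed them and aligned them with Bowtie (version not given in the sources used here) to miRBase and to the mouse genome (NCBIM37). The authors deposited count values, which are whole reads per mature miRNA without normalization and leave out miRNAs with 0 reads. The genome files hold, as deposited by the authors, the start and end of 1 alignment per read, and their score is 255 throughout and was not used. By the study's methods 2 mismatches were allowed, so reads of miRNAs that differ at 1 base can be exchanged by such an alignment.

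The runs of a library were summed. FCx and HP were compared with edgeR 4.0.16 (R 4.3.3; quasi-likelihood test, TMM normalization, Benjamini-Hochberg adjustment, threshold 0.05) on the 431 miRNAs whose counts summed to 2 or more in one of the regions, and the indexes with the same test and the region in the model. The code was tested on simulated data. The index pairs the libraries: deviations from the region's mean (log2 CPM, prior count 2) correlated with r of 0.796, 0.846 and 0.854 for libraries of the same index and from -0.618 to -0.226 for others. A fit with the index as a block was added for this reason. DESeq2 1.42.0 and other settings were alternatives. The p-values measure the spread between libraries of 1 RNA pool per region.

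Ratios of counts have exact conditional binomial intervals. Python 3.11.15, pandas 2.3.3, numpy 2.4.6, scipy 1.17.1 and matplotlib 3.10.9 were used. An alignment was given to a mature miRNA when its 5′ end lay within 8 nt of the start on the hairpin's strand. The miRNAs named are the 10 members, related miRNAs of muscle, liver and Hox clusters, miRNAs for a check of the tissue, and the 2 most like each member with at least 10 counts in every library. The members and lists were chosen with earlier results of these data known.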

Additional observations from a re-analysis of the deposited data

Results flagged for a closer look

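For miR-122 the ratio of index 7 to index 3 lay on opposite sides of 1 in the 2 regions, but a fall in FCx is not shown. The CPM ratio of index 7 over index 3 was 5.13 in HP (119 and 15 counts) and 0.536 in FCx (10 and 5 counts), and the difference was not tested.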

How the results depend on the processing

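Members called between FCx and HP were 0 under all 16 alternatives, and members called between the indexes were 3, or 2 with the pooled lanes and without HP replicate 1 or 2. The 3 were not always the same: with library totals miR-206 was called (adjusted p = 0.00817, edgeR) and miR-375 was not (0.221). The miRNAs called between FCx and HP, 2 in the fit reported, were 12 with DESeq2's Wald test, 14 with the exact test of edgeR over single lanes, 8 without a filter and 0 with the pooled lanes (edgeR), and 0 to 7 without one library. With the replicate block they were 77, and 56 with library totals as well, and the pairing changed no member's call. Members detected in FCx, 6 as reported, were 3 with at least 2 counts asked of every library. Of 110 refitted log2 fold changes 11 changed sign. With the replicate block, miR-1 was at -0.15 and miR-133b at -0.015, and with the individual lanes miR-10a was at -0.28. Without one library the range was -1.77 to 2.06 for miR-1, -1.64 to 2.002 for miR-133a, -3.21 to 1.15 for miR-133b, -1.15 to 1.24 for miR-122, -0.49 to 1.09 for miR-10a, -0.88 to 0.10 for miR-375 and 0.58 to 1.15 for miR-206. The lowest adjusted p of a member over the alternatives was 0.0927 (edgeR). The causes were not tested. Where an arm was left with fewer libraries, its spread was taken from the others. DESeq2 gave miR-1 no adjusted p in the region test. Depth limits the Hox cluster miRNAs, miR-133a and miR-133b, each with 0 to 25 counts over all files.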
